A study of Mus musculus with 2 samples.

Results

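The stromal group of miR-143, miR-145, miR-199 and miR-214 holds 9 of the 1080 miRNA names on the array, taken as every mouse name that begins miR-143-, miR-145-, miR-199a-, miR-199b- or miR-214-. They are mmu-miR-143-5p, mmu-miR-143-3p, mmu-miR-145-5p, mmu-miR-145-3p, mmu-miR-199a-5p, mmu-miR-199a-3p, mmu-miR-199b-5p, mmu-miR-214-5p and mmu-miR-214-3p, written below without the prefix mmu for mouse. The names were measured in RNA from bone marrow cells of C57BL/6 mice that had been grown for 4 days in medium with 5% FBS to give MDSCs (myeloid-derived suppressor cells), a T-cell-inhibiting population of immature myeloid cells. The labels do not state how many mice gave the marrow. The culture called GM-CSF plus IL-6 received 40 ng/ml of GM-CSF, a myeloid growth factor, and 40 ng/ml of IL-6, an inflammatory cytokine. The culture called GM-CSF only received 40 ng/ml of GM-CSF, so both cultures had that factor. With 1 single-colour Agilent array per culture, differences between the cultures carry neither a replicate check nor a p-value. Errors given below come from replicate spots within an array and do not cover the spread between cultures.

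A miRNA hairpin is cut into a -5p and a -3p strand, and usually 1 of them is kept in the silencing complex while its partner is degraded. Bases 2 to 8 of the kept strand, the seed, pair with target mRNAs. miR-143 and miR-145 are made from a shared primary transcript and are best known from smooth muscle and fibroblasts. miR-199a and miR-214 are made in large part from Dnm3os, a long noncoding RNA on the opposite strand of the dynamin gene Dnm3, and are known from mesenchymal cells. All are used as signs of stromal cells, which bone marrow also contains.

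Mature sequences from RefSeq (GRCm38.p6) are printed for 4 of the 9 names. They are shown because the results turn on the 2 arms of the miR-214 hairpin and on how far each name differs from others on the array. Each line reads 5′ to 3′ with the seed in capitals.
miR-214-5p: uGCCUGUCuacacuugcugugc
miR-214-3p: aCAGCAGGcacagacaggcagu
miR-199a-5p: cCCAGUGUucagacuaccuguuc
miR-199a-3p: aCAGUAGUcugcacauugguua
miR-761, a name outside the group with the seed of miR-214-3p: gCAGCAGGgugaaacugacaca

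The 2 miR-214 strands lie on the plus strand at chr1:162223397-162223418 (-5p) and chr1:162223438-162223459 (-3p). In the 110-base Mir214 hairpin, printed with both strands in capitals, they occupy bases 30 to 51 and 71 to 92.
Mir214 hairpin, chr1:162223368-162223477: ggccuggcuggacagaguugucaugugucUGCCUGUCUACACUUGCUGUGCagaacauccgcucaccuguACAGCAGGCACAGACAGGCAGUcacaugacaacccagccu
Mir199a-2 ends 5444 bases before it on the same strand, and both lie inside Dnm3os and Dnm3. A further copy, Mir199a-1, lies inside Dnm2 on chromosome 9, and Mir199b inside Dnm1 on chromosome 2. RefSeq gives the same letters for miR-199a-3p and miR-199b-3p, so the array name miR-199a-3p stands for both.

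Most of the group was not measurable in these cells, and the same held for most names on the array. With 9 names, the shares below do not set the group apart. The scanner software detected 2 of the 9 names in GM-CSF plus IL-6, miR-214-5p and miR-143-5p, against 28.5% of all names on that array. It detected 1, miR-214-5p, in GM-CSF only, against 27.9% of all names. Detection on both arrays held for 1 of the 9 and for 27% of all names. The other 7 were detected on neither array, as were 763 of the 1080 names. The level of a name is the sum of its total probe signals, in intensity units after the software's spatial detrending, which subtracts a fitted surface, so values around 0 and below occur.

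**Figure D1:**
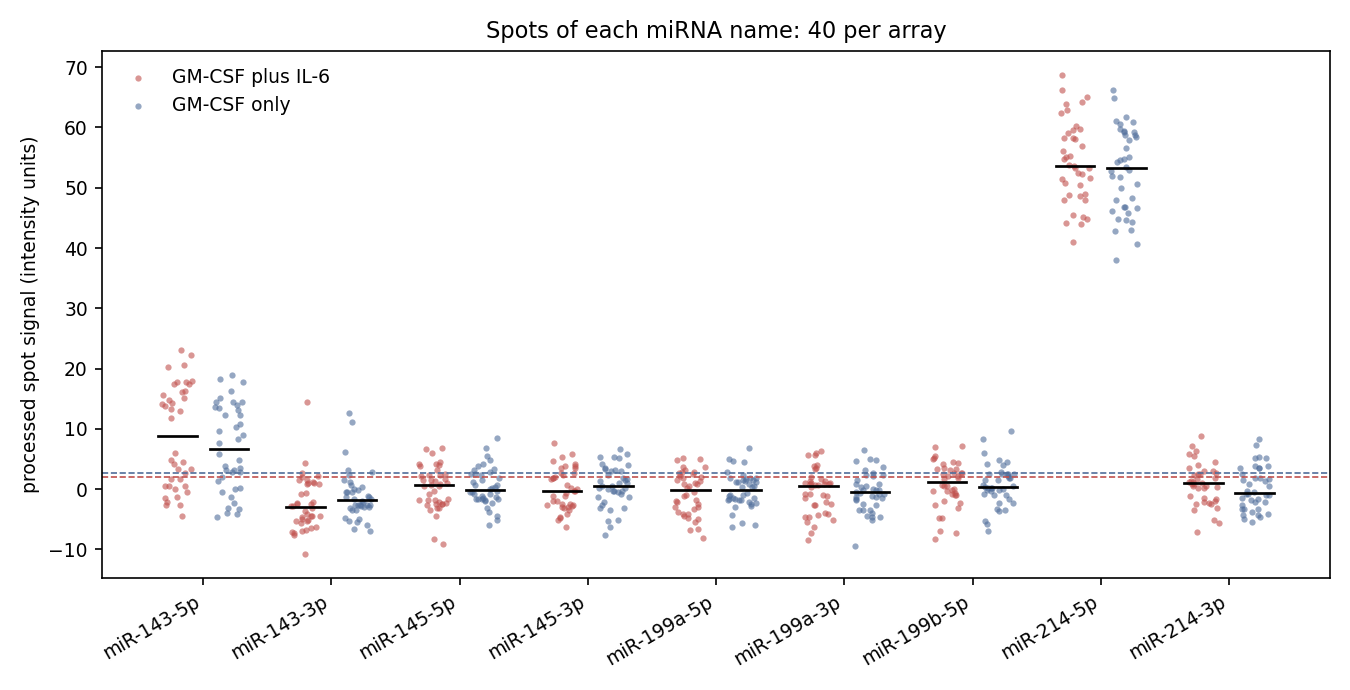
Processed signal (intensity units, linear axis) of the 40 spots of each miRNA name, GM-CSF plus IL-6 in red at the left of each pair and GM-CSF only in blue. Black bars are medians over spots and dashed lines are the negative control means. The spots of miR-214-5p lie between 41.0 and 68.7 with IL-6 and between 38.1 and 66.3 without it, above every other spot drawn; those of miR-143-5p fall into an upper and a lower set, 1 for each of its probes.

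miR-214-5p, earlier named miR-214*, was the clearest signal of the group. Its level was 41.3 ± 0.78 with IL-6 and 40.9 ± 0.82 with GM-CSF alone (spot SE, 40 spots each). All 40 spots were well above background on both arrays. The median spot read 53.7 with IL-6 and 53.2 without it, so the spots of the cultures overlapped almost entirely.

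The signal of miR-214-5p was spread evenly over its 4 probes. The probe totals ran from 9.59 to 10.98 with IL-6 and from 9.48 to 10.86 without it. Every probe exceeded its deposited error by at least 7.53 times with IL-6 and at least 7.48 times without it, where the limit for detection is 3. The brightest probe was 1.14 times the dimmest with IL-6 and 1.15 times without it. Among the 58 names with 4 probes that were detected on both arrays, that quotient had a median of 2.09 in the IL-6 culture and 2.07 in the other, where 5 and 4 names were more even. All 4 probes passed the limit in 33 of the 64 detected names with 4 probes on the IL-6 array, against 33 of 63 on the other.

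miR-214-3p, the strand usually called miR-214, gave no measurable signal. Its level was 0.64 ± 0.42 with IL-6 and 0.17 ± 0.43 with GM-CSF alone (spot SE). None of its spots, 0 of 40 on each array, was well above background. Its 2 probes averaged 0.093 and 1.58 per spot with IL-6, and -0.33 and 0.78 without it. The negative control spots averaged 1.99 ± 3.71 with IL-6 and 2.61 ± 3.82 without it (SD over spots without outlier flags, 7 probes). The -3p strand thus read no higher than negative controls in the same cultures where every spot of the -5p strand was bright. Probes of different names differ in how brightly they report, so these signals show which strand was detected and not a ratio of strands. miR-761 was detected on neither array, at -2.45 with IL-6 and -1.77 without it.

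Detection of 1 arm alone was common on these arrays. Of 381 mouse hairpins with both arm names on the array, the -5p name alone was detected in 77 (20.2%) on the IL-6 array and 75 (19.7%) on the other. The -3p name alone was detected in 66 (17.3%) and 64 (16.8%), and both arms in 30 (7.87%) and 31 (8.14%). miR-214 was among the 71 hairpins with the -5p name alone on both arrays.

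**Figure D2:**
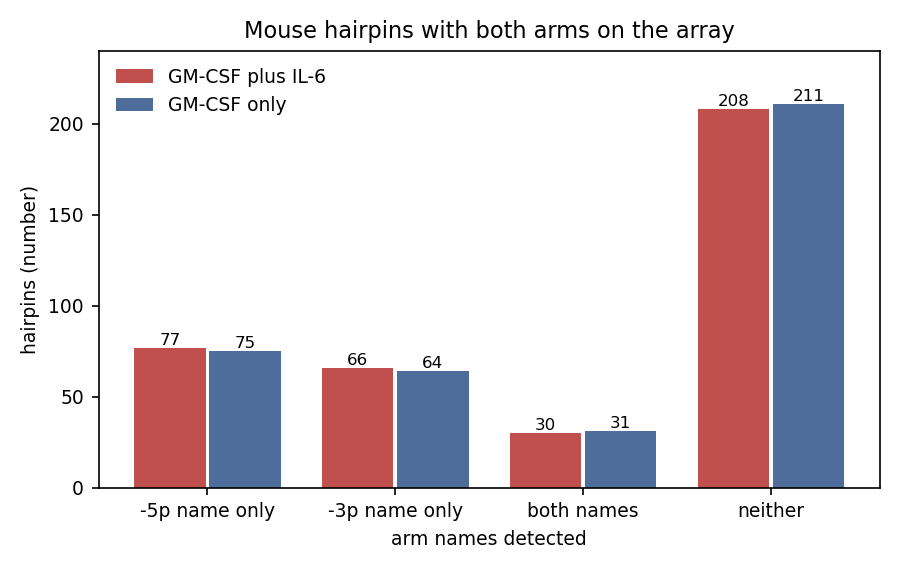
Number of mouse hairpins (of 381 with both arm names measured) by which arm was detected, with GM-CSF plus IL-6 in red at the left and GM-CSF only in blue. The miR-214 hairpin is in the -5p only bars on both arrays, 77 and 75 hairpins.

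The second arm pair with any signal was miR-143. For miR-143-5p, earlier named miR-143*, the level was 6.68 ± 0.34 with IL-6 and 5.16 ± 0.41 with GM-CSF alone (spot SE, 40 spots each). It counted as detected with IL-6 and undetected without it. Nearly all of that signal came from 1 of its 2 probes. This probe had a total of 6.32 with IL-6 and 5.10 without it. Its partner had 0.36 with IL-6 and 0.066 without it. Spots of the brighter probe ran from 11.8 to 23.07 with IL-6 and from 7.62 to 18.9 without it, so the cultures overlapped. All 20 of its spots were positive and significant on each array, and 2 with IL-6 and 0 without it were well above background. Detection through a single probe occurred in 44 of the 232 detected names with 2 probes (19.0%) on the IL-6 array, against 39 of 226 (17.3%) on the other.

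The change in the detection call of miR-143-5p was a matter of a small margin. The brighter probe stood at 3.55 times its deposited error with IL-6 and at 2.93 times without it, on either side of the limit of 3. Of the 25 names detected on 1 array alone (16 on the IL-6 array, 1.48% of all names, and 9 on the other, 0.833%), it ranked 3 by closeness to the limit on the undetected array, where the 25 ranged from 0.97 to 2.94 with a median of 2.51. After scaling, miR-143-5p read 1.47-fold higher with IL-6, a log2 ratio of 0.56 ± 0.14 (spot SE). The denominator is a signal below the detection limit, so that fold is no bound. The deposited probe errors give that log2 ratio an error of 0.85, larger than the ratio itself. Relative to the median of all names (defined below with miR-214-5p) the log2 ratio was 0.44. After normexp background correction, which adds an offset of 50 to each spot, it was 0.050. The median spot of miR-143-5p read 8.9 with IL-6 and 6.7 without it, so that offset draws its ratio toward 0 whatever the change. With detection set at 2.5 times the error, miR-143-5p was detected on both arrays.

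The scanner files also hold a gene total for miR-143-5p of 269 in the IL-6 culture, which does not describe this miRNA. Its excess over the detected probe, 262.7, equalled within 0.2% the gene total of miR-142-5p, the detected name before it in name order, and of no other detected name. The levels given here are probe sums, which do not hold that excess.

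miR-143-3p, the strand usually called miR-143, was undetected at -2.13 ± 0.38 with IL-6 and -1.42 ± 0.32 with GM-CSF alone (spot SE). Its dimmer probe averaged -4.57 ± 2.96 per spot with IL-6 and -2.47 ± 2.36 without it (SD over 20 and 17 spots without outlier flags). Both detected names, miR-214-5p and, by a small margin with IL-6 alone, miR-143-5p, are strands that carried a star in older nomenclature. The strands after which these 2 miRNAs are usually known were both undetected.

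**Figure D3:**
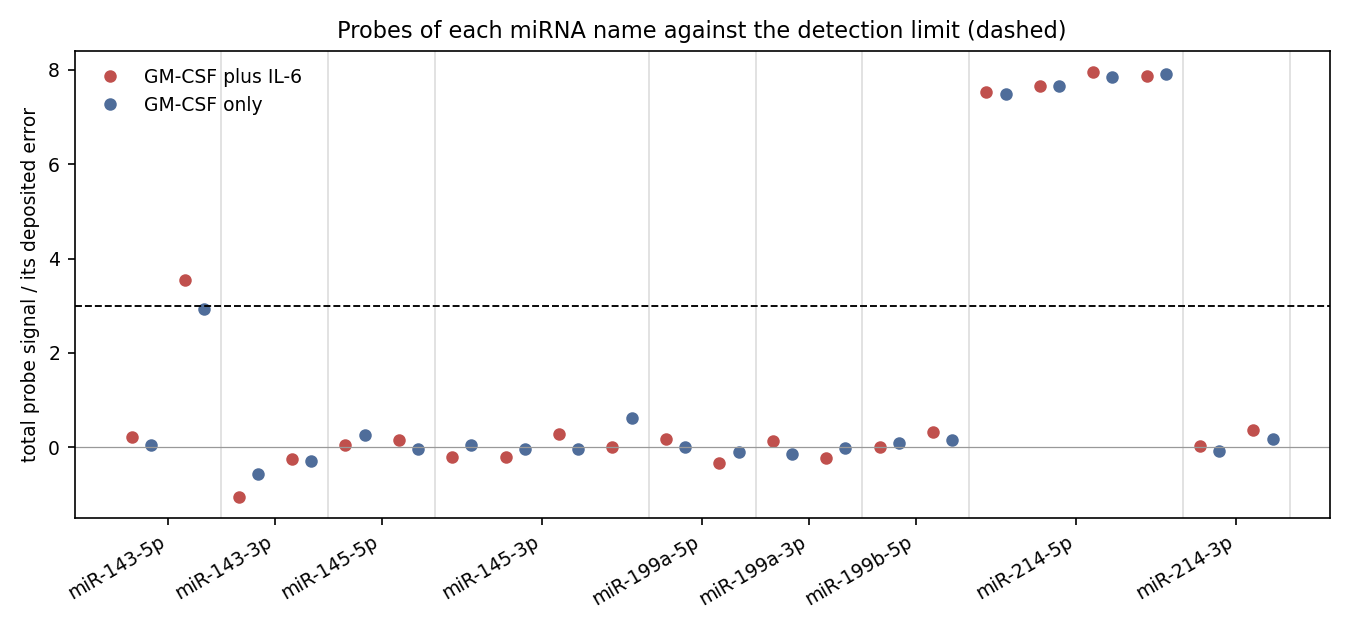
Total probe signal divided by its deposited error (no unit, linear axis) for every probe of the group, GM-CSF plus IL-6 in red at the left of each pair and GM-CSF only in blue, with the detection limit of 3 dashed. The 4 probes of miR-214-5p lie between 7.48 and 7.96, 1 probe of miR-143-5p lies at 3.55 with IL-6 and 2.93 without it, and all others lie below 1.

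The remaining names read like background in both cultures. miR-145-5p, which in smooth muscle restrains the stem cell factors Klf4 and Klf5, stood at 0.34 ± 0.41 with IL-6 and 0.34 ± 0.38 without it (spot SE). Its partner miR-145-3p stood at -0.10 ± 0.39 and 0.51 ± 0.40 in the same order. In the miR-199 family, miR-199a-5p read -0.29 ± 0.42 with IL-6 and -0.14 ± 0.36 with GM-CSF alone. miR-199a-3p read -0.18 ± 0.44 with IL-6 and -0.26 ± 0.36 without it. miR-199b-5p read 0.58 ± 0.45 with IL-6 and 0.42 ± 0.40 without it. For each of these 5 names the levels of the cultures overlapped within their spot SE, and no fold is given where both arrays are below detection.

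Over the 7 undetected names, levels ran from -2.13 to 0.64 with IL-6 and from -1.42 to 0.51 without it. Of their 280 spots, 0 were well above background on either array. On each array 30 (10.71%) were called positive and significant, a looser flag that 27.8% of the negative control spots carried with IL-6 and 32.2% without it. Among spots of all undetected names the share was 17.1% with IL-6 and 18.6% without it. No probe of these names exceeded 0.36 times its deposited error with IL-6 or 0.61 times without it. Such readings mean not detectable on these arrays, and an amount of RNA cannot be taken from them. In cultures of mixed cells, fewer cells of a type and less RNA per cell cannot be told apart.

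The comparison the design implies asks how IL-6 added to GM-CSF altered miRNA levels, and in this group miR-214-5p alone was detected on both arrays. Its signals were nearly equal before any scaling, with a log2 ratio, IL-6 on top, of 0.01. Dividing each array by its 75th percentile over the 292 names detected on both arrays (160 with IL-6 and 182 without it) gave 0.20 ± 0.04 (spot SE), or 1.15-fold. That scaling put the median of all 292 names at 0.12, and relative to that median miR-214-5p stood at 0.08, or 1.05-fold. The deposited probe errors give the log2 ratio an error of 0.13. The relative value is smaller in size than that of 190 of the 292 names, whose quartiles were -0.09 and 0.16. Using odd spots alone the relative value was 0.17 and using even spots alone it was -0.01, so the direction of this small difference was not settled within the arrays.

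The background for that comparison was low. A 2-fold increase with IL-6 was reached by 4 of the 292 names (1.37%), or by 3 (1.03%) relative to the median, and a 2-fold decrease by 0 (0%). At 1.5-fold, 16 were higher (5.48%), or 10 (3.42%) relative to the median, and 0 lower (0%). miR-214-5p was in none of these counts.

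**Figure D4:**
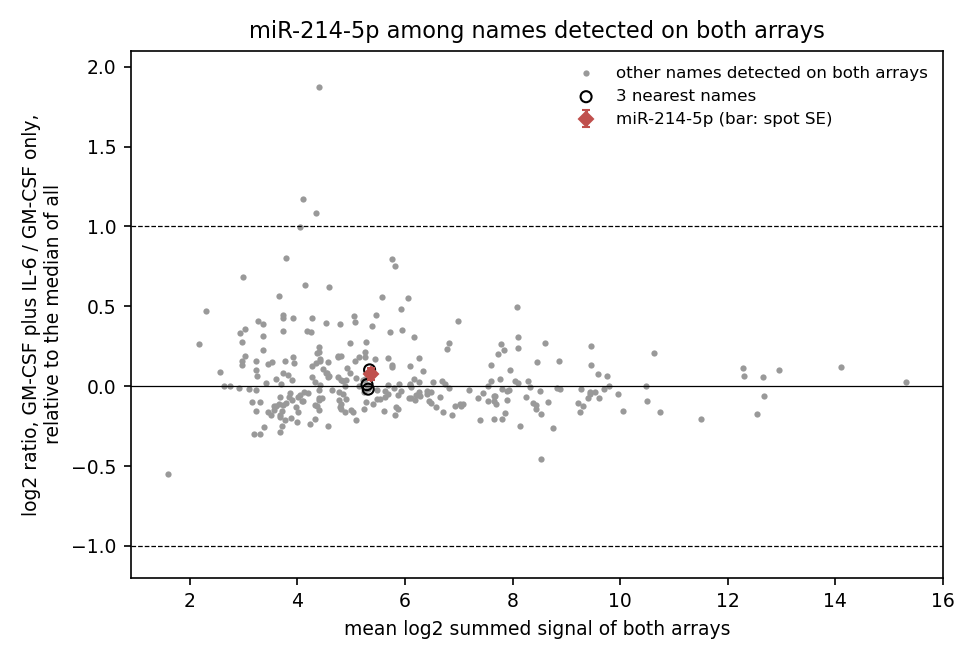
Log2 ratio between the cultures (IL-6 on top), relative to the median of all, against the mean log2 summed signal, for the 292 names detected on both arrays. miR-214-5p (red, bar: spot SE) lies at 0.08, beside its 3 nearest names (open circles), and the dashed lines mark 2-fold.

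By signal miR-214-5p ranked 141 of the 292 names with IL-6 and 140 without it, a rank of probe brightness and not of abundance. The 3 names nearest to it in the pair of scaled log2 levels over the 2 arrays were miR-700-5p, miR-296-5p and miR-1930-3p. miR-700-5p had 41.1 with IL-6 and 40.04 without it, at a distance of 0.03 log2 units. miR-296-5p had 38.7 and 41.01, and miR-1930-3p 38.5 and 40.00, in the same order. With 2 arrays such likeness is a matter of equal brightness.

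In sequence miR-214-5p lay a little above the median in G+C content. It lay below the median in the longest run shared with a detected name. Its G+C content was 54.5%, against a median of 50% over the 208 names detected on both arrays that have a RefSeq sequence. It was 59.1% for miR-214-3p, 52.2% for miR-199a-5p and 40.9% for miR-199a-3p. The longest run of identical letters that miR-214-5p shares with another name detected on both arrays was 7 bases, with miR-132-3p, miR-181b-5p, miR-30c-5p and miR-350-3p. The median over 794 array names with a sequence was 8, and 94.7% had a run of at least 7. It was 8 for miR-214-3p and miR-199a-5p and 7 for miR-199a-3p, all undetected. Among the array names with a sequence in the table used here, no other shared the seed of miR-214-5p, miR-199a-5p or miR-199a-3p. miR-199b-5p, known as the seed partner of miR-199a-5p, was not compared here, and miR-199b-3p, identical to miR-199a-3p, has no array name of its own. Cross-hybridization was not tested.

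Other miRNAs known from stromal and neighbouring cell types were set beside the group. Of 12 further stromal names, miR-140-3p and miR-140-5p were detected in both cultures, while 10 were detected in neither, among them miR-125b-5p, miR-100-5p and miR-10b-5p. miR-140-3p had 122 with IL-6 and 138 without it (relative log2 ratio -0.11 ± 0.02, spot SE), and miR-140-5p, best known from cartilage, 97.2 and 113 (-0.16 ± 0.02). Of 5 muscle names, miR-206-3p, known from skeletal muscle, was detected at 67.8 with IL-6 and 55.5 without it (0.35 ± 0.03). These marker ratios carry the spot SE alone. For miR-214-5p the deposited probe errors gave a larger error, 0.13 against a spot SE of 0.04. The skeletal and cardiac muscle names miR-133a-3p and miR-1a-3p were undetected on both arrays. Of 2 endothelial names, miR-126-3p was detected at 11.0 with IL-6 and 12.8 without it. Of 6 epithelial names, miR-200c-3p and miR-141-3p were detected in both cultures and miR-200b-3p with GM-CSF alone. The call for miR-200b-3p was again a small margin, at 2.80 times the probe error with IL-6 and 3.66 times without it. All 3 names on the myeloid list used here, miR-223-3p and both strands of miR-142, were bright. That list leaves out miR-511, which is also known from myeloid cells. Together the 3 listed names gave 7899 with IL-6 and 8535 with GM-CSF alone. Of that, miR-223-3p gave 6239 with IL-6 and 6807 without it. Which blood cells the miR-142 signal came from was not tested. The summed signal of the 12 stromal names was 234 with IL-6 and 265 without it, nearly all of it from the miR-140 strands. The part of any non-myeloid cell in the signal of miR-214-5p was not tested.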

How the data were processed

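Feature Extraction 10.7.1.1 (Agilent) made the values, per the file headers: intensities that the authors deposited spatially detrended (background correction off in the headers), with no scaling between arrays. Groups came from the label for the treatment. Both arrays lie on the same slide and scan, which leaves no batch to test, and their number limits the precision. Levels were divided by the 75th percentile over names detected on both arrays. A name is detected if any probe total exceeds 3 times its deposited error; this matched the flag of all 1080 names on both arrays. The authors' deposited table holds log2 values, which equalled the log2 sum of detected probe totals minus 1 constant per array (6.28 and 6.28) for all 308 and 301 detected names within 0.003. The column medians of that table were -9.60 and -9.60, its floor, and the origin of the constants is unknown. Of 2780 probes, none had saturated spots.

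The members, marker lists and nearest-name rule were chosen with earlier results of these data known. Named were all members, names sharing a seed with them, the 3 names nearest to miR-214-5p, and detected markers. Outside that rule, and chosen after their values were seen, are 5 undetected markers and the 4 names that share the longest sequence run with miR-214-5p. Of the 1080 names, 794 matched a RefSeq mature sequence by name. No test was run between cultures. Spot errors use spots without outlier flags, and the ratio functions were tested on simulated data. Python 3.11.15, numpy 2.4.6, pandas 2.3.3, matplotlib 3.10.9, R 4.3.3 and limma 3.58.1 were used.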

Additional observations from a re-analysis of the deposited data

How the results depend on the processing

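No paired analysis was possible because each culture has 1 array. Values moved if they left the 95% interval of the spot error, and counts if they changed by over 1.5 times. The log2 ratio of miR-214-5p, 0.20 as reported, was -0.0697 with the 75th percentile over all names, -0.0111 with the median, 0.0126 unscaled, -0.0167 after quantile normalization, 0.052 after loess, 0.0939 after normexp, 0.011 in the authors' deposited table, 0.27 on odd spots, 0.11 on even spots and 0.0778 from gene totals. Relative to the median of all it moved on odd (0.17) and even (-0.00908) spots alone, and 16 of 17 alternatives lay above 0. Of these, 4 were single probes chosen after seeing the data. The 75th percentile over all names, the median and no scaling could not change the relative value, as a constant per array cancels. Their sign was thus fixed in advance, and the tally is no measure of agreement. The log2 ratio of miR-143-5p fell to 0.24 with mean log2 spot signals and 0.10 after normexp (0.050 relative to the median). Mean log2 signals raise spots below 1 to 1 and weight its dim probe like the brighter one, which dilutes the ratio. The normexp offset of 50 draws ratios of dim names toward 0. Quantile normalization, loess, the deposited table and gene totals gave miR-143-5p no value. Names at least 2-fold higher with IL-6 numbered 2 under both of the first scalings, 0 after normexp and 7 in the deposited table, and 16 at 1.5-fold. The normexp count carries the same offset. Lower names numbered 1 in that table and 5 from gene totals. With 50% or more of the spots well above background, 1 member was detected with IL-6. The limit from negative controls, or 2.5 errors (chosen after seeing the data), gave 2 with GM-CSF only. Dim names limit what these arrays can show.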
